A study of Homo sapiens with 6 samples.

Results

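The chaperone genes described here are the spots of a human cDNA array whose current symbol begins with HSPA, HSPB, HSPD, HSPE, HSPH, HSP90 or DNAJ, or is TCP1 or CCT followed by a digit. They came to 36 genes on 50 spots, out of 6255 named genes and 9169 spots tested, and no matching spot was lost to a filter. RNA was measured in SH-SY5Y, an established human neuroblastoma line with features of immature sympathetic neurons. The 3 DN-TRF2 samples had received pIRES2-EGFP with an insert for dominant-negative TRF2 (the native protein belongs to the shelterin complex that protects telomeres) and the 3 GFP control samples had received pEGF-C2 without an insert. Both groups were held in 500 µg/ml geneticin, RNA was taken on day 7 after transfection in 3 independent experiments, and each sample was hybridised as radiolabelled cDNA to 1 array. The plasmid backbone differed between the groups together with the insert, and their effects cannot be told apart. The cells were transfected cultures under selection, so that fewer cells of a kind and less RNA per cell cannot be told apart either.

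Molecular chaperones hold newly made or unfolded proteins until they reach their folded form. Hsp70 proteins (the HSPA genes) bind short greasy stretches in a cycle of ATP hydrolysis that J-domain proteins (the DNAJ genes) start, and many clients pass on to Hsp90. The small heat shock proteins (HSPB) hold unfolded clients without ATP, Hsp60 (HSPD1) encloses proteins in the mitochondrial matrix, and the ring-shaped chaperonin built from TCP1 and the CCT subunits folds actin and tubulin in the cytosol. Many of these genes are switched on by heat shock factors under stress, while HSPA8, HSP90AB1 and the chaperonin are made in nearly all growing cells.

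Chaperone mRNAs showed no difference that passed the test between DN-TRF2 cells and GFP controls. Of the 36 genes, 0 had an adjusted p under 0.05 by limma, as did 0 of all 6255 genes (0%). The adjusted p was 1.00 for each of the 36. At an unadjusted p under 0.05, 1 member was higher and 1 was lower, against 2.49% of all genes higher and 1.07% lower, so the members' share was close to that of the array. HSPB8, the small heat shock protein that works with the co-chaperone BAG3 in clearing misfolded proteins, was the member with the smallest p and was higher in DN-TRF2 cells by 0.45 ± 0.12 (SE, log2, n = 3 arrays a group). The lower member was the spot annotated DNAJC25-GNG10, at -0.59 ± 0.21.

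Differences are on a log2 scale after an offset of 50 was added to the deposited intensities, which makes them smaller than the true change at dim spots. In 26 of the 36 genes the DN-TRF2 mean was lower and in 10 it was higher, or 27.8% higher against 48.0% of all genes. The median difference was -0.047 for the members and -0.0067 for all genes. The typical member's standard error was 0.16 and its 95% interval, not adjusted for the number of genes, reached 0.36 to either side, a factor of 1.29. Passing the adjusted p takes more. In simulated data with equal scatter in both groups, changes of 0.5 passed in 11 of 100 genes and changes of 1 in 66 of 100. With 3 arrays a group, changes larger than 0.36 in a single chaperone gene can therefore go uncalled. The count of higher members was 9 without GFP control replicate 2, the control array with the lowest correlations to its group over all spots, and 15 without GFP control replicate 3. A plot of all 36 differences with their intervals shows that 34 of the intervals include 0.

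**Figure D1:**
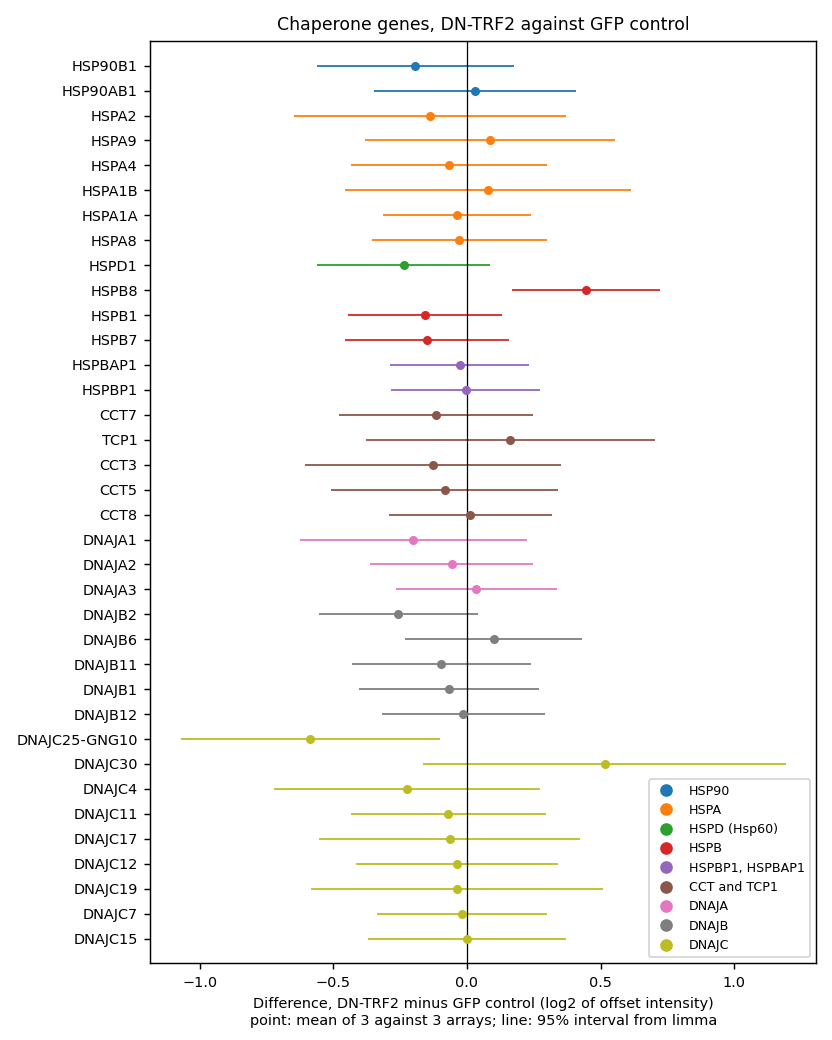
Difference of each chaperone gene, DN-TRF2 minus GFP control, on the log2 scale of offset intensity (horizontal axis), with genes ordered by family down the page. Points are differences of 3 against 3 arrays and lines are limma's 95% intervals. The intervals of HSPB8 and DNAJC25-GNG10 lie to the right and to the left of 0, and the others include it.

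The labelled line was checked against markers of sympathoadrenal cells, of which 9 of 16 listed genes had a spot. Their signal ran from percentile 2.89 for HAND1 to 93.9 for the granule protein gene CHGB. DBH, the enzyme that makes noradrenaline, lay at percentile 82.0, and the neuronal genes NEFM, STMN2 and GAP43 lay at 54.9, 60.8 and 63.7. Among markers of other cell types, ALB lay at percentile 19.2 and the haemoglobin gene HBB at 2.56, but LYZ lay at 89.7 and KRT8 at 83.0. Signal at a cDNA spot also depends on the clone, so these ranks are a weak check. TRF2 itself had no named spot, and the labels were not checked against it here. Median deposited intensity ran from 517 to 681 on the DN-TRF2 arrays and from 480 to 712 on the controls. The GFP control arrays were more scattered: their SD was the larger in 31 of the 36 chaperone genes (86.1%) and in 78.4% of all genes. GFP control replicate 2 correlated with the other controls at 0.954 and 0.963, against at least 0.987 between DN-TRF2 arrays. Over the chaperone genes alone, the SD of deviations from the group mean was 0.275 on GFP control replicate 1 and 0.258 on GFP control replicate 2.

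Heat shock factors bind inverted repeats of the letters GAA in promoters. The first listed RefSeq start (GRCh38.p14) of each gene was used. The head-to-head pair, GAANNTTC, was looked for in the 250 bases before that start. It was present in 8 of the 36 chaperone genes (22.2%), against 5.85% of 27305 genes with such a window. Of the 6255 genes tested here 5144 had a window, and 4.34% of those held the pair. The reverse complement of this motif is the motif itself, so that a match counts for both strands. The HSPA8 window lies inside that gene's annotated span (chr11:123057489-123062462), so its start is not the outermost start of HSPA8. Members were chosen by symbol, and many of the symbols name heat shock proteins, so the higher share is not independent of the choice. The windows of HSPA1A and HSPA1B are nearly identical. The matches nearest the start are shown with 61 bases each, read 5′ to 3′ on the gene's own strand. Capitals mark the pair.
HSPB8, chr12:119178817-119178877, plus strand: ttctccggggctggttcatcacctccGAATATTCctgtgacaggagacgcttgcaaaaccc
HSPB1, chr7:76302465-76302525, plus strand: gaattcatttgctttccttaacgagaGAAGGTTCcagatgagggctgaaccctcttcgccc
HSPA1A, chr6:31815411-31815471, plus strand: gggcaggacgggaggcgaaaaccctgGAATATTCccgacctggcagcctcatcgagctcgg
HSPA1B, chr6:31827607-31827667, plus strand: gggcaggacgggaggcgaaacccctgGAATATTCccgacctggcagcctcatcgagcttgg
HSPA8, chr11:123062152-123062212, minus strand: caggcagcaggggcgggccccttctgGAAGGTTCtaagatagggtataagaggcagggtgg
DNAJA1, chr9:33025049-33025109, plus strand: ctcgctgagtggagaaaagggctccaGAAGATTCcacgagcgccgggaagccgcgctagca
DNAJB6, chr7:157336847-157336907, plus strand: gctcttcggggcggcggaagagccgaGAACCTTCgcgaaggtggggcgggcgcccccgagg
TCP1, chr6:159789792-159789852, minus strand: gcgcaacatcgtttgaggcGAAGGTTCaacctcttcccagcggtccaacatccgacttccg

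Genes that carry the pair differed in both directions in DN-TRF2 cells, and a link between the pair and the differences was not tested. Of the 8 genes 4 had a higher mean, with a median difference of 0.025, and of the other 28 genes 6 had, with a median of -0.067. HSPB8 and HSPA1A both hold the letters GAATATTC, and differed by 0.45 ± 0.12 and -0.037 ± 0.12. The longer run of 3 units, in which the pair is followed by NN and GAA, searched on both strands, was found in HSPA8 and DNAJB6, or 5.56% of members against 0.439% of all windows, and it overlaps the pair. The tail-to-tail pair, TTCNNGAA, was in 3 members (8.33%) against 6.72% of all windows. In all 6 motifs were searched, and among them the general promoter motifs CCAAT and TATAAA, on both strands, were in 44.4% and 16.7% of members, against 33.0% and 11.1% of all windows. The ER stress element, given with HSP90B1, contains the letters CCAAT.

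Of the small heat shock proteins HSPB8, HSPB1 and HSPB7 were measured, and 0 passed the adjusted p by limma. HSPB8 had log2 values of 9.87, 9.86 and 9.88 on the DN-TRF2 arrays, against 9.49, 9.49 and 9.29 on the GFP control arrays. The groups did not overlap, and the DN-TRF2 arrays lay within a span of 0.017. The deposited intensities of its 1 spot were 796, 876 and 1029 on the DN-TRF2 arrays, against 552, 620 and 708 on the controls. These are values before the normalisation applied here, and whether they had been scaled between arrays earlier is not known. The difference of 0.45 is a 1.36-fold higher level with a 95% interval of 0.17 to 0.72 and limma's unadjusted p was 0.0054, rank 22 of 6255 genes, with an adjusted p of 1.00. It lay between 0.38 and 0.48 when any 1 array was left out and came to 0.47 without GFP control replicate 2. Groups did not overlap with DN-TRF2 higher in 4.70% of all genes and lower in 4.25%, and in 1 and 2 of the 36 members.

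HSPB1, Hsp27, a small heat shock protein that guards actin filaments and is common in neurons under stress, averaged 8.36 ± 0.098 in DN-TRF2 cells and 8.51 ± 0.11 in GFP controls (SD, n = 3 each). The difference was -0.16 ± 0.13 (SE), and all 3 of its spots were lower, at -0.26 to -0.071. HSPB7, a small heat shock protein known mainly from heart and muscle, had a dim spot at percentile 9.22 and differed by -0.15 ± 0.14. CRYAB, alpha-B-crystallin, which belongs to the same family under another name, differed by 0.27 ± 0.16. Genes of substrate-adherent cells and stroma were on average higher on the DN-TRF2 arrays, as HSPB8 was. The mean log2 level of the 9 measured of 12 listed was 9.69, 9.75 and 9.74 on the DN-TRF2 arrays, against 9.48, 9.56 and 9.47 on the controls. Of these 9 genes 6 were higher, 4 without overlap between the groups, led by TIMP1 at 0.68 ± 0.14, and 0 passed limma's adjusted p. The other 3 were lower: THY1 at -0.22, VIM at -0.20 and FN1 at -0.029. Over all genes 48.0% had a higher mean in DN-TRF2 cells, and 4.70% were higher without overlap. The sympathoadrenal markers were also higher on average, with 5 of 9 genes higher. Their mean was 9.77, 9.72 and 9.76 on the DN-TRF2 arrays, against 9.675, 9.70 and 9.68 on the controls. The part of either list in the HSPB8 difference was not tested.

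**Figure D2:**
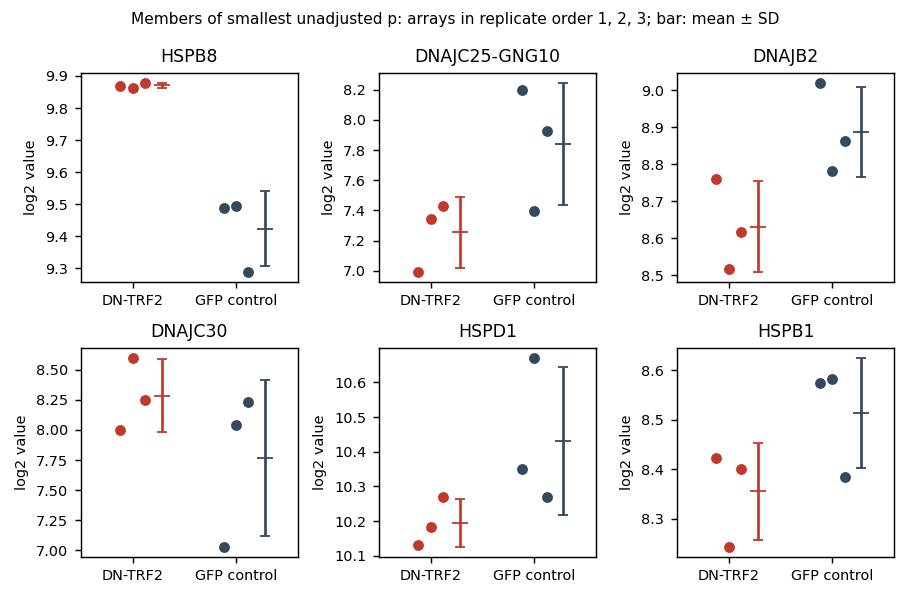
The 6 chaperone genes of smallest unadjusted p. Each panel gives log2 values per array (vertical axis, own scale per gene), in red for DN-TRF2 and in dark blue for GFP control, with mean ± SD at the right of the points. HSPB8 shows DN-TRF2 arrays at 9.86 to 9.88 and controls at 9.29 to 9.49; DNAJC30 shows 1 control array at 7.03, far under the others.

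Of the 6 Hsp70 genes 0 passed limma's adjusted p, which does not show equal levels. Their widest intervals were -0.65 to 0.37 for HSPA2, -0.46 to 0.61 for HSPA1B and -0.38 to 0.56 for HSPA9. Changes of that size are not excluded for these genes. HSPA8, the constitutive Hsc70 of the cytosol, averaged 11.51 ± 0.16 in DN-TRF2 cells and 11.54 ± 0.17 in GFP controls (SD, n = 3 each), with a difference of -0.029 ± 0.14 (SE) over its 3 spots and an interval of -0.36 to 0.30. HSPA1A, stress-inducible Hsp70, had values of 10.83, 10.87 and 11.05 on the DN-TRF2 arrays, against 10.97, 10.98 and 10.91 on the controls. Its groups overlapped and the difference was -0.037 ± 0.12. HSPA1B, whose coding sequence is nearly identical, so that both spots can bind RNA of either gene, read 10.75, 10.72 and 10.97 on the DN-TRF2 arrays, against 11.14, 10.16 and 10.90 on the controls. The low value was that of GFP control replicate 2. HSPA1B differed by 0.079 ± 0.24, and by -0.21 without that array.

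HSPA9, mortalin, the Hsp70 of the mitochondrial matrix, averaged 8.54 ± 0.14 in DN-TRF2 cells and 8.45 ± 0.42 in GFP controls (SD, n = 3 each), a difference of 0.088 ± 0.21. HSPA4, a larger relative that releases nucleotide from Hsp70, differed by -0.068 ± 0.16. HSPA2, best known from the testis, differed by -0.14 ± 0.22. Over the 6 HSPA genes the differences ran from -0.14 to 0.088, with 2 higher and 4 lower and a median of -0.033. No gene of the family lay outside the overlap of the groups. HSPA5, the Hsp70 of the endoplasmic reticulum, was not analysed here because no spot carried its name.

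Of the Hsp90 genes HSP90AB1 and HSP90B1 were measured. HSP90AB1, the constitutive cytosolic form, averaged 10.16 ± 0.091 in DN-TRF2 cells and 10.13 ± 0.31 in GFP controls (SD, n = 3 each) over 5 spots, and differed by 0.030 ± 0.17. HSP90B1, GRP94, the form of the endoplasmic reticulum, read 9.25, 9.43 and 9.53 on the DN-TRF2 arrays, against 9.90, 9.40 and 9.48 on the controls. GFP control replicate 1 was the high array, and the difference of -0.19 ± 0.16 came to -0.041 without it. The promoter of HSP90B1 holds 2 matches to the ER stress element, CCAAT and CCACG with any 9 bases between them, searched on both strands and found in 0.0806% of all windows; the match nearest the start, on the opposite strand and in capitals, is shown because this element is known from promoters of the unfolded protein response.
HSP90B1, chr12:103930300-103930360, plus strand: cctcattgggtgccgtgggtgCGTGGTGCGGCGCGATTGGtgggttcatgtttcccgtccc
DNAJB11, the J-protein partner of the ER Hsp70, had no match and differed by -0.096 ± 0.15. HSP90AA1 and HSPH1 were not analysed here.

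HSPD1, the mitochondrial Hsp60, was lower on every DN-TRF2 array than on any control, by a narrow gap. Its values were 10.131, 10.183 and 10.268 on the DN-TRF2 arrays, against 10.351, 10.672 and 10.270 on the controls, with means of 10.19 ± 0.069 and 10.43 ± 0.21 (SD). The difference was -0.24 ± 0.14 with an interval of -0.56 to 0.086 and limma's unadjusted p of 0.13. Both of its spots were lower, at -0.22 and -0.26. The highest of its values was that of GFP control replicate 2, without which the difference was -0.11. TRAP1, the mitochondrial Hsp90, differed by -0.050 ± 0.14, and DNAJA3, a J-protein of the same compartment, by 0.035 ± 0.13. HSPE1, the lid of Hsp60, was not analysed here.

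The cytosolic chaperonin was represented by 5 of its subunit genes. TCP1 read 11.51, 11.76 and 11.74 on the DN-TRF2 arrays, against 11.15, 11.26 and 12.11 on the GFP control arrays. Its controls lay on both sides of all DN-TRF2 arrays, and it differed by 0.16 ± 0.24. CCT3 averaged 10.23 ± 0.064 in DN-TRF2 cells and 10.35 ± 0.46 in controls (SD, n = 3 each), a difference of -0.13 ± 0.21 (SE). CCT7 averaged 9.89 ± 0.037 in DN-TRF2 cells and 10.005 ± 0.29 in controls, a difference of -0.12 ± 0.16. CCT5 and CCT8 differed by -0.084 ± 0.19 and 0.013 ± 0.13, and the CCT8 spot was dim, at percentile 12.3. Over the 5 subunits the median difference was -0.084, with 2 higher and 3 lower.

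The chaperonin values turned on the control arrays. All 5 read lower on GFP control replicate 2 than on the mean of the other controls, with a median gap of -0.46, against 0.020 over all genes. Without that array CCT3 differed by -0.38 and CCT7 by -0.28, with unadjusted p of 0.016 and 0.039 and adjusted p of 0.47 and 0.58 by limma, and the family's median was -0.24. Without GFP control replicate 3 the median was 0.054 and TCP1 differed by 0.48, with an unadjusted p of 0.013 and an adjusted p of 0.61. Array medians around each gene's own mean were -0.053, -0.0046 and 0.12 for the chaperonin on the DN-TRF2 arrays, against 0.071, -0.27 and 0.19 on the controls.

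Tubulins and actins, which the chaperonin folds, were lower in 16 of 20 measured genes of 25 listed, and 0 passed limma's adjusted p. The median difference was -0.22, and 20% of the genes were higher, against 48.0% of all genes. Genes of these families resemble each other, and whether their spots bind each other's RNA was not tested. TUBB3, the neuronal beta-tubulin, differed by -0.52 ± 0.17. Their array medians were 0.10, -0.36 and -0.067 on the DN-TRF2 arrays, against 0.38, -0.32 and 0.38 on the controls. GFP control replicate 2 was the lowest control for clients and chaperonin alike. Of the genes that bring or finish these clients, 14 of 20 listed were measured, with 8 higher, 6 lower and a median of 0.010. PFDN4, a subunit of prefoldin, which hands unfolded actin and tubulin to the chaperonin, read 9.95, 10.39 and 10.21 on the DN-TRF2 arrays, against 9.42, 9.87 and 9.82 on the controls. Its groups did not overlap, and it differed by 0.48 ± 0.17 with an adjusted p of 1.00 by limma. ARL2, a GTPase that works with the tubulin cofactors, differed by 0.21 ± 0.12 and TBCA, a cofactor that holds beta-tubulin, by -0.32 ± 0.20.

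**Figure D3:**
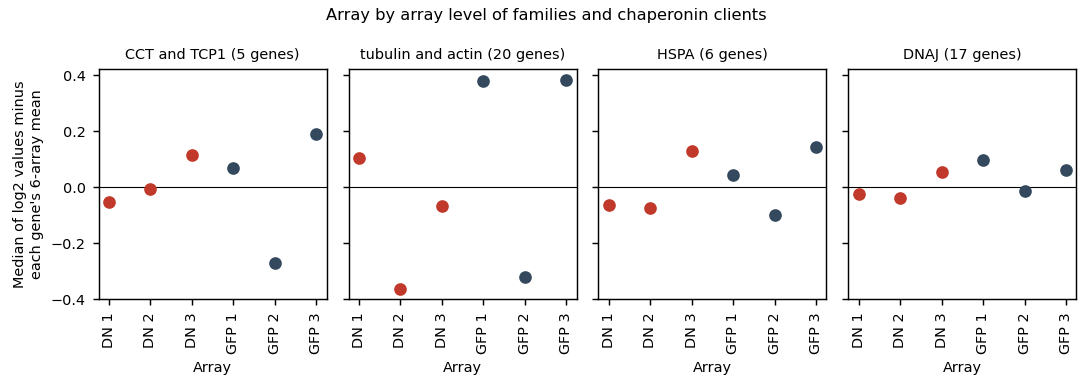
Median log2 value per array, after each gene's mean over the 6 arrays was taken off (vertical axis), for the chaperonin, its tubulin and actin clients, HSPA genes and DNAJ genes; red is DN-TRF2 and dark blue GFP control. GFP control replicate 2 is the lowest control in every panel, at -0.27 for the chaperonin and -0.32 for tubulin and actin.

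J-domain proteins made up 17 of the 36 genes, and 13 of them had a lower mean in DN-TRF2 cells. The family's median difference was -0.057. Members of class A, which resemble the bacterial DnaJ, were DNAJA1, DNAJA2 and DNAJA3. DNAJA1, a main partner of cytosolic Hsp70, averaged 9.49 ± 0.33 in DN-TRF2 cells and 9.69 ± 0.20 in GFP controls (SD, n = 3 each), a difference of -0.20 ± 0.19. DN-TRF2 replicate 2 was its lowest array at 9.11, and without it the difference was -0.012. DNAJA2 differed by -0.057 ± 0.13 at dim spots.

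Among class B, DNAJB2, a J-protein enriched in neurons that steers clients to the proteasome, was lower without overlap. It read 8.76, 8.52 and 8.62 on the DN-TRF2 arrays, against 9.02, 8.78 and 8.86 on the controls. The gap between the groups was narrow, and the difference was -0.26 ± 0.13 with an interval of -0.56 to 0.041 and an unadjusted p of 0.083. It kept its sign with each array left out, from -0.32 to -0.19. DNAJB1, the Hsp40 induced by heat, read 9.52, 9.10 and 9.42 on the DN-TRF2 arrays, against 9.55, 9.33 and 9.37 on the controls, a difference of -0.068 ± 0.15. DNAJB6, which holds back aggregation of polyglutamine proteins, differed by 0.10 ± 0.15, with its spots at 0.26 and -0.061. DNAJB12, of the ER membrane, differed by -0.013 ± 0.13.

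Class C, whose members share little but the J domain, held the widest differences. Its median SE was also wide, at 0.21 against 0.16 over all members. The DNAJC25-GNG10 spot, named for a readthrough of a J-protein gene into the G-protein subunit gene GNG10, read 6.99, 7.34 and 7.43 on the DN-TRF2 arrays, against 8.20, 7.40 and 7.93 on the controls. The groups overlapped through GFP control replicate 2. The difference was -0.59 ± 0.21, a 0.666-fold level with an interval of -1.07 to -0.10 and an unadjusted p of 0.023 by limma. It was -0.80 without that control, with an unadjusted p of 0.0011 and an adjusted p of 0.30 by limma, and -0.42 without GFP control replicate 1. The spot was dim, at percentile 15.6 of signal. Whether its cDNA detects the readthrough, DNAJC25 or GNG10 alone was not tested. DNAJC30, a mitochondrial J-protein, read 7.995, 8.60 and 8.25 on the DN-TRF2 arrays, against 7.03, 8.04 and 8.23 on the controls. Its difference of 0.52 ± 0.30 came to 0.15 without GFP control replicate 1, and its signal lay at percentile 23.7. Between arrays of the same number DNAJC30 was higher in DN-TRF2 cells in all 3 pairs, by 0.97, 0.56 and 0.020, and with the replicate number as a block its SE was 0.18, with an unadjusted p of 0.023 and an adjusted p of 0.89 by limma.

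The remaining 7 class C genes lay between -0.23 and 0.00033. DNAJC4 differed by -0.23 ± 0.22, with GFP control replicate 2 high at 8.98 against at most 8.34 on the other arrays. DNAJC7, a J-protein that binds both Hsp70 and Hsp90, differed by -0.018 ± 0.14, and DNAJC12, a J-protein partner of the aromatic amino acid hydroxylases, by -0.038 ± 0.17. The mitochondrial import J-proteins DNAJC19 and DNAJC15 differed by -0.037 ± 0.24 and 0.00033 ± 0.16, and DNAJC11, of the inner membrane organising complex, by -0.070 ± 0.16. DNAJC17, a nuclear J-protein, differed by -0.065 ± 0.21.

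**Figure D4:**
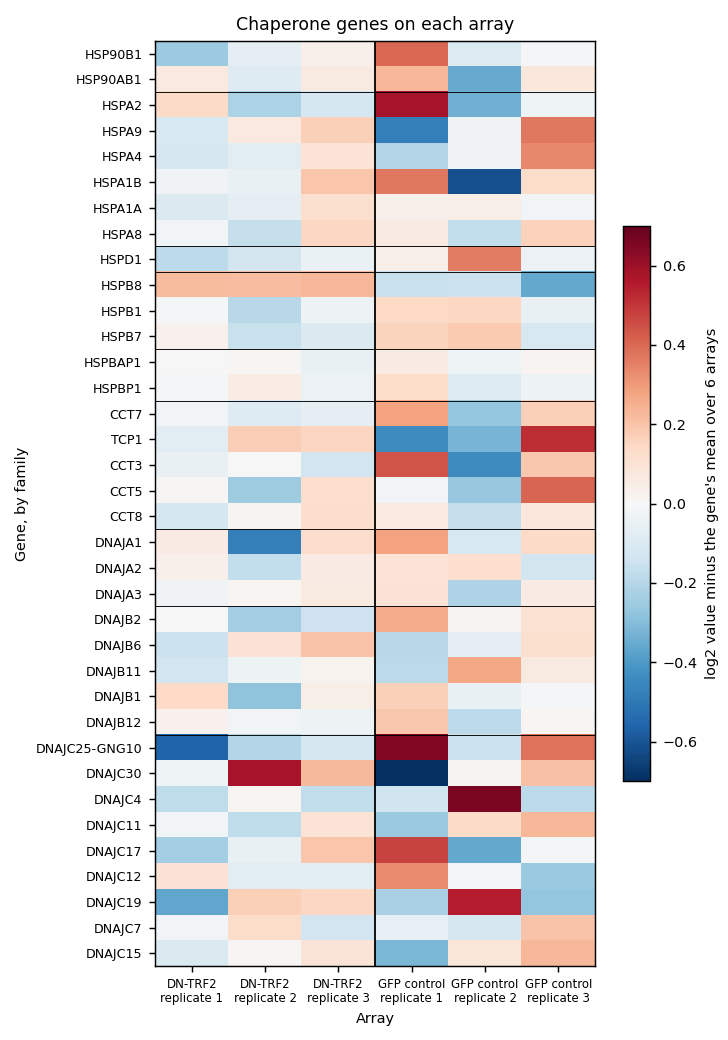
Log2 value of each chaperone gene on each array after the gene's mean over the 6 arrays was taken off, as colour from blue (low) to red (high); values beyond 0.7 to either side take the end colour. Columns are the 3 DN-TRF2 arrays at the left of the black line and the 3 GFP control arrays at its right, and rows are genes by family. HSPB8 is even across the DN-TRF2 arrays, while strong colours fall mostly in the GFP control columns.

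The symbols HSPBP1 and HSPBAP1 match the rule by their letters but encode binding partners. HSPBP1, which makes Hsp70 release its nucleotide, differed by -0.0046 ± 0.12 and HSPBAP1, which binds Hsp27, by -0.028 ± 0.12. Co-chaperones and regulators were read from lists. Of the 11 measured Hsp70 co-chaperones, which include HSPBP1, 3 were higher and 8 lower (median -0.013), with SGTB, a neuronal adaptor with a dim spot, at 0.49 ± 0.20. Of the 13 measured Hsp90 co-chaperones 3 were higher and 10 lower (median -0.094). PTGES3, p23, which closes the Hsp90 cycle, read 9.65, 9.79 and 9.82 on the DN-TRF2 arrays, against 9.95, 10.23 and 10.06 on the controls, and differed by -0.33 ± 0.13 with no overlap. TTC4, another Hsp90 partner, differed by 0.27 ± 0.12, and STIP1, which joins Hsp70 to Hsp90, by -0.28 ± 0.22.

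Of 22 measured genes of ER folding and the unfolded protein response 7 were higher and 15 lower, with a median of -0.056. PDIA3, a disulfide isomerase of glycoprotein folding, differed by -0.51 ± 0.17 at a dim spot, the stress-induced pseudokinase gene TRIB3 by -0.33 ± 0.17 and the transcription factor gene ATF6B by 0.38 ± 0.21. Of 7 measured kin under other symbols 3 were higher and 4 lower (median -0.050), with BBS10, a chaperonin-like ciliary protein, at -0.21 ± 0.15 and the disaggregase CLPB at -0.16 ± 0.14. Of the heat shock factor genes and regulators 3 were measured. HSF1, the main heat shock factor, read the stand-in value of 10 for spots without signal on 4 arrays and 8.37 and 15.64 on the others, so that no difference is read from it. HSBP1, which binds heat shock factor, differed by 0.014 ± 0.14 and HSF2BP, which binds HSF2, by -0.066 ± 0.18 at a dim spot. No gene of these lists passed limma's adjusted p, which was 1.00 for each.

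Spots of the same chaperone gene did not always give the same sign. Of the 9 members with several spots 3 had every spot on the same side of 0, all of them lower, namely HSPD1, HSPB1 and DNAJA2. The 2 spots of HSPBP1 differed by 0.21 and -0.21, and the 5 spots of HSP90AB1 from -0.093 to 0.17. At the level of single spots 0 of 50 passed limma's adjusted p, as did 0% of all 9169 spots.

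**Figure D5:**
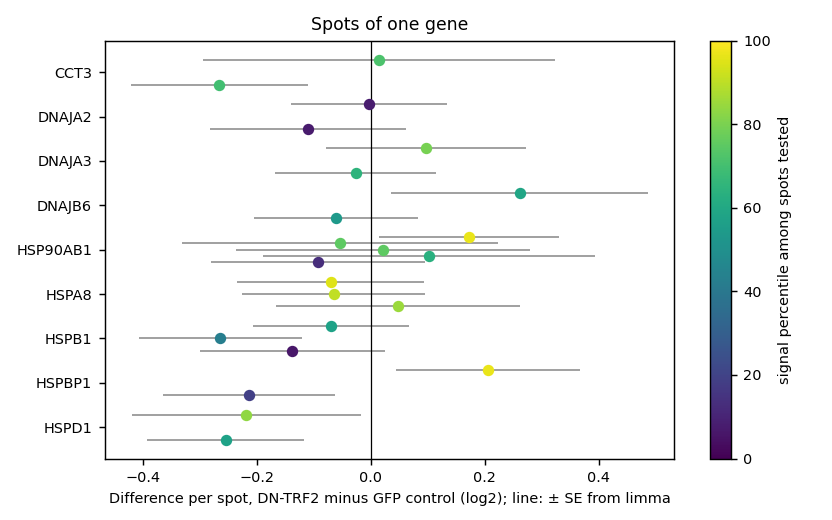
Difference per spot, DN-TRF2 minus GFP control, on the log2 scale (horizontal axis) for the 9 chaperone genes with several spots; lines are ± SE from limma and colour gives the percentile of signal. The spots of HSPBP1 lie on both sides of 0, those of HSPD1 and HSPB1 on the lower side.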

How the data were processed

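The deposited table holds linear intensity values, 1 channel per array, for 9600 spots on 6 arrays. The sources used here do not give the image software, background treatment or scaling. About 5 µg of total RNA was labelled per array, per the labels' protocols. The stand-in value 10.00 filled 384 blank positions (each 25th spot). These were removed together with another 47 spots that held it on every array, and 9169 remained. Spots were named through the platform annotation and updated by gene ID (GRCh38.p14 gene table, 8493 of 8517 matched): 8451 had 1 gene, 21 several and 697 none listed. An offset of 50 was added, log2 taken, arrays quantile-normalised and spots of the same gene averaged. All 6255 genes were fitted in R 4.3.3 with limma 3.58.1 (lmFit, eBayes), with two-sided p-values adjusted over all genes by Benjamini-Hochberg and a threshold of 0.05. The same fit was run on single spots. In simulated data for this comparison over 6255 genes, changes of 1 on the log2 scale were recovered in 66 of 100 genes and changes of 0.5 in 11 of 100. The simulation drew independent normal noise with the same SD per gene in both groups. In the data the control arrays were more scattered and arrays of the same number were correlated. The adjusted p also depends on how many genes change, so these shares need not hold for the data. The number of arrays limits the precision.

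Both groups carry replicate numbers 1 to 3. After group means were taken off, arrays that share a number correlated at 0.390, 0.296 and 0.246 over spots, so the values, not the labels, point to pairing by number. The errors and p-values given are from the fit without a block unless the block is named, and the fit with the block is an alternative.

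The members and lists were chosen with earlier results of these data known. Every chaperonin subunit, the textbook members, the 4 members of smallest p per family and up to 3 genes per list were to be named; TRAP1 was added after its value was seen. Alternatives were other offsets, normalisations, signal filters, spot choices, array weights, a variance trend, the replicate block and each array left out. Promoter windows come from RefSeq (GRCh38.p14) and were found for all 36 members. Only the first listed window of each gene was used, and 7811 further windows of listed genes were left out.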

Additional observations from a re-analysis of the deposited data

How the results depend on the processing

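In all 18 alternatives 0 of the chaperone genes passed limma's adjusted p, and 0 of their spots did in the alternatives fitted on spots, which leave out the choice of the spot of highest signal. The smallest adjusted p of a member was 0.299, for DNAJC25-GNG10 without GFP control replicate 2. The count of genes with a higher mean ran from 7 (of 22 measured, without the spots below median signal) to 15. HSPB8 was higher under all 18 alternatives, from 0.38 to 0.51. With the replicate block, 2 members were higher at an unadjusted p under 0.05 (HSPB8 and DNAJC30) and 1 lower. Over all genes the number at that p rose as well, to 332 with the block against 223 without it. The block, which pairs arrays by number, changed no call by adjusted p. The count lower at an unadjusted p under 0.05 was 0 without the quartile of dimmest spots (27 genes measured) and 0 without the spots below median signal, as DNAJC25-GNG10 is then not tested, and 2 with array weights. With 1 array left out it ran from 0 to 4 (DNAJC25-GNG10, CCT3, CCT7 and DNAJB2, without GFP control replicate 2), and the count higher from 1 to 3 (HSPB8, DNAJC30 and TCP1, without GFP control replicate 3). All genes at an unadjusted p under 0.05 numbered 223. The number was 508 when GFP control replicate 2 was left out and 482 when GFP control replicate 3 was, 101 for DN-TRF2 replicate 2, 111 for DN-TRF2 replicate 3, 361 with array weights, 141 without the dimmest quartile and 82 without the spots below the median.

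Small differences changed sign, and the cause was not tested. With array weights DNAJA2 differed by 0.035, DNAJA3 by -0.0038, DNAJC12 by 0.042, DNAJC15 by -0.046, DNAJC19 by 0.22, HSP90AB1 by -0.040, HSPA1A by 0.026, HSPA1B by -0.012, HSPA9 by -0.024 and TCP1 by -0.073. With median centring DNAJA3 differed by -0.013 and DNAJB12 by 0.023, and with cyclic loess DNAJB12 by 0.0049. With an offset of 100 DNAJC15 differed by -0.0026 and HSPBP1 by 0.015. With the spot of highest signal CCT3 differed by 0.014 and HSPBP1 by 0.21, and HSPBP1 did so under both signal filters too. With 1 array left out the differences spanned 0 in 24 genes: CCT3 -0.38 to 0.063, CCT5 -0.24 to 0.098, CCT8 -0.065 to 0.079, DNAJA2 -0.13 to 0.015, DNAJA3 -0.063 to 0.092, DNAJB1 -0.16 to 0.055, DNAJB11 -0.22 to 0.014, DNAJB12 -0.11 to 0.077, DNAJC4 -0.37 to 0.049, DNAJC7 -0.086 to 0.079, DNAJC11 -0.22 to 0.028, DNAJC12 -0.18 to 0.12, DNAJC15 -0.16 to 0.12, DNAJC17 -0.26 to 0.16, DNAJC19 -0.18 to 0.22, HSP90AB1 -0.14 to 0.16, HSPA1A -0.10 to 0.0043, HSPA1B -0.21 to 0.28, HSPA2 -0.34 to 0.12, HSPA4 -0.19 to 0.083, HSPA8 -0.12 to 0.048, HSPA9 -0.13 to 0.29, HSPBP1 -0.049 to 0.055 and TCP1 -0.013 to 0.48.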

Other observations

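GFP control replicate 2 departed from the other controls unevenly between spots of some chaperone genes and evenly in others. The range between spots of the same gene was 1.55 for HSP90AB1, 1.03 for CCT3, 0.91 for HSPA8, 0.70 for HSPD1, 0.61 for HSPBP1, 0.39 for DNAJA3, 0.28 for HSPB1, 0.14 for DNAJB6 and 0.12 for DNAJA2. All 5 chaperonin genes read lower on that array than the mean of the other controls. At 3 of the 5 spots of HSP90AB1 it read lower than the mean of the other controls, by -1.11, -0.95 and -1.19 on the log2 scale, and at the other 2 spots it read higher, by 0.33 and 0.37. The 2 spots of CCT3 gave -1.27 and -0.25, the 3 spots of HSPA8 0.14, -0.77 and -0.22, and the 2 spots of HSPD1 0.71 and 0.011. HSPA1A and HSPA1B, whose coding sequences are nearly identical, read 10.98 and 10.16 on that array and between 10.90 and 11.14 on the other controls. In 12 of the 36 chaperone genes GFP control replicate 2 was the lowest of the 6 arrays, against 26.8% of all genes.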
